A study of Caenorhabditis elegans with 2 samples.

Results

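The 236 peaks described here are the places on the X chromosome of Caenorhabditis elegans where tagged T22C8.4 protein was found by ChIP-seq away from tRNA genes. They were taken from the thresholded peak list that the authors called over both replicates, which held 2415 peaks. Of its 334 peaks on X, 98 had a summit within 150 bp of an annotated tRNA gene and were left out, so the members made up 9.77% of the list. The 1966 autosomal peaks that remained after the same exclusion (115 were left out) served for comparison. Within the thresholded list, only chromosome and distance to a tRNA gene entered the choice, and the signal of a peak did not. The authors' threshold had already decided which peaks were in that list. No summit lay close to the 150 bp limit: the 3 nearest that were left out lay 18, 40 and 80 bp from a tRNA gene, and the 3 nearest that were kept lay 270, 457 and 659 bp away.

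The study has 1 group with 2 biological replicates of whole midembryonic worms, obtained by egg bleaching and labelled with an age of 2 hours; their sex was not collected. Both replicates are of strain OP785, in which the transgene wgIs785 supplies T22C8.4 fused to TY1, EGFP and 3xFLAG together with unc-119(+), in an unc-119 (tm4063) background. Chromatin was sonicated to 200 to 800 bp and precipitated through the GFP tag with an antibody against GFP, so the data report the tagged transgene product and not the endogenous protein, averaged over all cells of the embryo. There is no untagged or mutant group, and the input control was not analysed here. Coordinates are on ce11, and genes are those of Ensembl release 115 on WBcel235, the same assembly. The lists hold peaks and no read counts, so sequencing depth is unknown. Signal values are the authors' own, and they are compared only within 1 list.

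C. elegans hermaphrodites have a pair of X chromosomes and males a single one. In hermaphrodites a condensin-like dosage compensation complex binds both X chromosomes and lowers their transcription. It is loaded at recruitment sites on X, many of which carry the MEX motif, a sequence element with the core GCGCAGGG that is known for being concentrated at these sites. The switch between the sexes is xol-1, an X-linked gene that is active in XO embryos and repressed in XX embryos.

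The strongest X peaks often held the MEX core close to the summit. The core, searched on both strands within 100 bp of the summit, occurred in 14 of the 236 X peaks and 5 of the 10 strongest. A further 31 X entries, with a score of at least 830 in the ranked list over both replicates, are missing from the thresholded list, and none holds the core; with them ranked in, the 10 strongest X entries hold it in 3. The lines below give 40 bases around each core in the 6 strongest X peaks that hold one, with the core in capitals, read 5′ to 3′ on the strand that carries it (RefSeq sequence of WBcel235); they are shown because this core had the largest odds ratio for X of the 5 motifs tested. Peaks are numbered by their signal among the X members.
X peak 1, first core, chrX:11094210-11094249, minus strand: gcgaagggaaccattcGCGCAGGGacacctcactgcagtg
X peak 1, second core, chrX:11094109-11094148, minus strand: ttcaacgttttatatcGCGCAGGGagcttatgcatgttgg
X peak 3, chrX:4209250-4209289, minus strand: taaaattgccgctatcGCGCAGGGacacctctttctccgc
X peak 4, first core, chrX:8036385-8036424, minus strand: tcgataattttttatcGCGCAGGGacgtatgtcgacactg
X peak 4, second core, chrX:8036419-8036458, plus strand: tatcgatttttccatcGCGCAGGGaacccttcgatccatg
X peak 7, chrX:14525884-14525923, minus strand: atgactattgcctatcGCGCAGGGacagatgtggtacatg
X peak 9, chrX:16682156-16682195, minus strand: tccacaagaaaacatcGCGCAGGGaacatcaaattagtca
X peak 17, first core, chrX:6296532-6296571, plus strand: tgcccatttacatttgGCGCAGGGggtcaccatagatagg
X peak 17, second core, chrX:6296560-6296599, plus strand: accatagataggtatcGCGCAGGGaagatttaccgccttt
Outside the capitals, TC stood directly before the core in 8 of these 9 copies. Over all 17 copies in the 14 X peaks, TC preceded the core in 11, and an A followed it in 12.

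The 5 motifs tested, this core among them, were chosen with earlier results of these data known. The share of peaks with the MEX core was 5.93% on X and 0.305% on the autosomes (14 of 236 against 6 of 1966). The odds ratio was 20.6 (95% interval 7.33 to 65.9), and the difference passed the threshold of 0.05 (two-sided Fisher's exact test, adjusted p = 1.98e-09 by Benjamini-Hochberg over 5 motifs). As in every such test below, peaks of one chromosome are not independent replicates, so the p-values describe this list and do not measure the spread between replicates. The separate lists of the replicates served as the check: the core was in 10 of 130 X peaks (7.69%) against 0.452% of autosomal peaks in replicate 1, and in 11 of 113 (9.73%) against 0.478% in replicate 2. It was more frequent on X among promoter peaks (3.60% against 0.228%, exact adjusted p = 0.00942) and outside promoters (8.0% against 0.368%, exact adjusted p = 1.70e-07).

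The core was rare elsewhere on X. It stood in 0.0851% of all consecutive 201 bp windows of X and 0.0553% of those of the autosomes. In windows of the same length centred 500 bp to either side of the X summits it was found in 0.636%. X held 81 copies in all, of which 17 (21%) lay within 100 bp of a member's summit, and the autosomes held 233, of which 6 (2.58%) lay that close to a peak. So most copies on either kind of chromosome were not that close to a peak's summit. The density of copies itself was 4.57 per Mb on X and 2.82 per Mb on the autosomes.

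X peaks with the core were also mostly strong and reproduced. Their median signal was 229.5, against 93.7 for the 222 X peaks without it. With the X peaks split by signal into 4 groups of 59 from the strongest down, the core was in 9, 4, 1 and 0 peaks. Of the 14, 10 overlapped a peak in each replicate's list and 10 lay outside promoters. The distance from the core nearest to the summit had a median of 43.5 bp and reached 91.5 bp, and 7 of the 14 peaks had a core within 50 bp. The 6 autosomal peaks with a core had signals from 81.0 to 345.0.

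The 11 bases most common over the 17 copies, from the T before the core to the A behind it, read TCGCGCAGGGA. An exact copy was within 100 bp of the summit in 8 X peaks and in none of the 1966 autosomal peaks. With at most 1 mismatch it was found in 14 X peaks (5.93%) and 4 autosomal peaks (0.203%), and in 8 of the 20 strongest X peaks. Since the 11 bases were read from the X peaks themselves, these counts are a description with no test. A pair of strong X peaks without the core, X peak 2 and X peak 6, came in by this looser match, and the 40 bases around it are given with the 11 bases in capitals.
X peak 2, chrX:11937441-11937480, minus strand: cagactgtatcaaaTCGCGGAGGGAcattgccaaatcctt
X peak 6, chrX:1627090-1627129, plus strand: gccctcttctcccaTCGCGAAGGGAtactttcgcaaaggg
Counted from 1 at the 5′ end of the 11 bases, with the common base first, the changes were C6G in X peak 2 and C6A in X peak 6. Both fall on the same base of the core. A match of letters is a description, and binding of another factor was not measured.

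The strongest X peak, at chrX:11094029-11094343, had a pooled signal of 1222, with 637.6 in the list of replicate 1 and 590.5 in that of replicate 2. It was the second strongest of all 2202 peaks away from tRNA genes. It lay between genes, 3326 bp from W04G3.11 and 2757 bp from W02H3.3, and its 2 cores stood at 34.5 and -66.5 bp from the summit. X peak 3 (chrX:4209111-4209378) had a signal of 839.7, with 436.6 and 398.2 in replicates 1 and 2, and lay 1314 bp from hpk-1, a homeodomain-interacting protein kinase. X peak 4 (chrX:8036292-8036539) had a signal of 755.2, with 404.3 and 352.0 in replicates 1 and 2. This peak lay 4898 bp upstream of the 5′ end of xol-1 and 4801 bp from C34D10.1 on its other side. It lay 270 bp from a tRNA gene, the smallest such distance among the members. Each of these summits was high in both replicates.

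X peak 7 (chrX:14525830-14526071, signal 554.1) was the strongest X peak in a promoter, 775 bp upstream of nspc-17. Its replicate signals were 285.2 and 269.4. The nspc genes form a family of similar copies, and how reads shared between copies were placed is not stated in the labels. X peak 9 (chrX:16682032-16682216) had a signal of 413.1 and replicate values of 205.1 and 205.2, and lay 2326 bp from F22H10.2. X peak 17 (chrX:6296462-6296632) had a signal of 271.2, with 127.2 and 139.7, and sat in an intron of mom-1, which encodes the porcupine-type enzyme needed to secrete Wnt ligands.

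The other X peaks with the core were weaker. X peak 19 (264.2) lay between F19H6.6 and F19H6.5, and its core stood 91.5 bp from the summit, outside the called peak. X peak 30 (194.9) was 651 bp upstream of ins-39, an insulin-like peptide gene, and X peak 42 (164.3) lay 1240 bp from cdk-4, the kinase partner of cyclin D. X peak 61 (136.4) was at the 5′ end of R04E5.9, X peak 65 (133.3) in a coding exon of pks-1, a polyketide synthase gene, and X peak 66 (132.7) in a pseudogene. X peak 83 (114.6) sat in an intron of Y41G9A.17 and X peak 171 (84.4) was 146 bp upstream of gcc-1. By signal the last 2 rank 83 and 171 among the 236 X peaks.

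**Figure D1:**
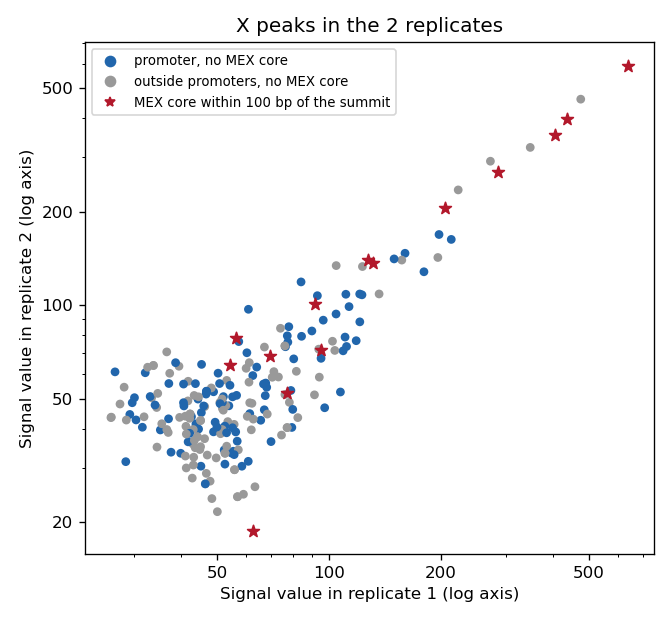
Signal values of the 231 X members found in both replicates' ranked lists, replicate 1 on the horizontal and replicate 2 on the vertical axis, both logarithmic. Points are peaks, coloured by promoter or other position, and stars mark the 14 peaks with a MEX core; 5 of the 10 strongest X peaks are stars, and the weakest star lies at 62.5 and 18.8.

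The strongest X peaks without the core were mixed. X peak 2 (chrX:11937376-11937648) had a signal of 924.5, with 475.5 and 460.6 in replicates 1 and 2. This peak lay 609 bp from F55G7.5 and 5862 bp from dot-1.4, which encodes a relative of the histone methyltransferase DOT1. X peak 5 (chrX:727784-728011) had a signal of 678.8, with 347.8 and 322.2, and lay 1920 bp upstream of sli-1, the worm relative of the ubiquitin ligase CBL. X peak 6 (chrX:1626961-1627223) had a signal of 557.1, with 271.8 and 290.8, and lay 1037 bp upstream of fbxb-58, an F-box gene. X peak 8 (456.5, with 222.7 and 235.1) lay between ZK899.6 and gap-2, a Ras GTPase-activating protein gene. These 4 are intergenic, as are 8 of the 10 strongest X peaks and 11 of the 20 strongest. Of the 20 strongest, 6 lay in promoters and 3 in introns, 7 held the MEX core, and all 20 overlapped a peak in each replicate's list.

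Among promoter peaks, X peak 10 (378.2, with 213.3 and 162.9) lay 313 bp upstream of bet-2, a gene for a bromodomain protein of the BET family. X peak 11 (367.5, with 197.8 and 168.9) lay 125 bp upstream of unc-115, whose product links actin filaments to axon guidance. The 101 bases centred on both summits are given on the plus strand, with each copy of ATCGAT in capitals on either strand; those of ATTGAT were marked likewise, as were those of GAGAGA. The peaks are the strongest X promoter peaks without a MEX core and serve only as examples. Both hold GAGAGA, which was near 35.1% of all X promoter summits.
X peak 10, bet-2, chrX:10568910-10569010: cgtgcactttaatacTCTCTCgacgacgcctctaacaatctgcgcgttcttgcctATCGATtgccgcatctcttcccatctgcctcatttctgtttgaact
X peak 11, unc-115, chrX:10146717-10146817: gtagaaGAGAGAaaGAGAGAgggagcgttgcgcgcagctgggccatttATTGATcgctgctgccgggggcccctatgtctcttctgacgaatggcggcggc
The remaining strong promoter peaks were X peak 13 (318.4, ZC506.1), X peak 14 (318.3, T13C5.6) and X peak 16 (289.2), which lay 670 bp upstream of madd-3, a gene needed for muscle arm extension. The strongest intron peaks besides that in mom-1 were X peak 15 in chkr-1 (305.1) and X peak 18 in ZK470.2 (267.6), and X peak 12 (330.8, near tmem-184) and X peak 20 (246.9, between lin-15A and srg-64) were intergenic.

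Signals over all 236 X peaks ran from 3.21 to 1222 with a median of 96.0, and those of the autosomal peaks from 2.37 to 1295 with a median of 103.3. X, which held 236 of the 2202 peaks, supplied 3 of the 10 strongest, 5 of the 20 strongest and 12 of the 100 strongest. Among the strongest 25% of the 2202, with a signal of 147.2 or more, were 53 X peaks (22.5%) and 498 autosomal peaks (25.3%), a difference that did not pass the test (odds ratio 0.854, interval 0.606 to 1.19, Fisher's exact test, adjusted p = 0.424 over 10 features). Within peaks outside promoters, a split chosen after seeing the data, 16.8% of X peaks and 25.9% of autosomal peaks were in the strongest 25% of the peaks outside promoters (odds ratio 0.576, exact adjusted p = 0.0358).

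X peaks were sparser than autosomal ones. The density was 13.4 per Mb on X and 23.9 per Mb on the 5 autosomes together, a ratio of 0.562 (interval 0.489 to 0.643, two-sided exact binomial test, adjusted p = 2.42e-18). Chromosomes I and III had 35.8 and 35.4 per Mb, II and IV had 19.9 and 18.9, and V had 14.7 (interval 13.1 to 16.4), which overlaps that of X (11.7 to 15.2). Against II, IV and V alone the ratio was 0.763 (exact adjusted p = 0.000501). In replicate 1 X had 7.38 per Mb and the lowest autosome 10, and in replicate 2 X had 6.41 and the lowest autosome 7.70, so X was lowest in both lists.

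**Figure D2:**
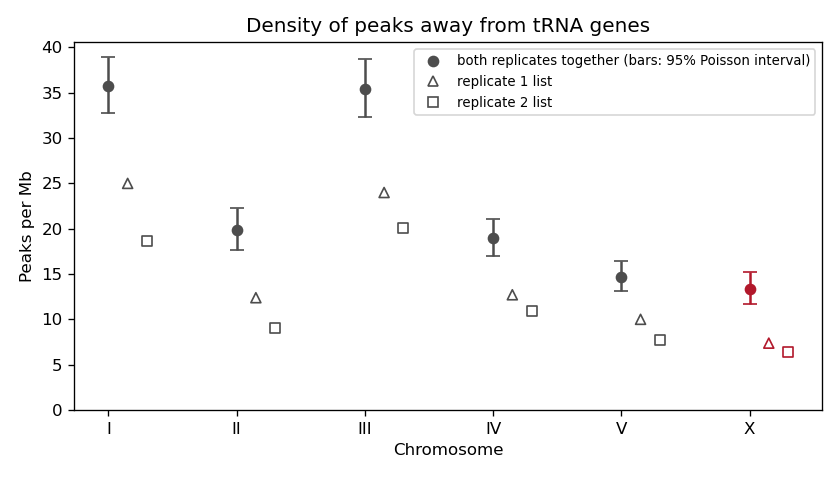
Peaks per Mb away from tRNA genes on each chromosome, for the list over both replicates (filled circles with 95% Poisson intervals) and for the separate lists of replicate 1 (triangles) and replicate 2 (squares). X, in red, has 13.4 per Mb and is lowest in each list, with V next at 14.7.

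Promoters gave a different picture. A promoter here spans 1000 bp upstream to 200 bp downstream of the 5′ end of a protein-coding transcript. Promoter bases held 28.8 X peaks per Mb against 39.4 on the autosomes (ratio 0.732, exact adjusted p = 0.00239), but X fell inside the range of single autosomes, 21 to 63.3. Against II, IV and V alone the ratio was 1.00 (exact adjusted p = 1), and in the list of replicate 2 alone it was 0.843 (exact adjusted p = 0.254). The share of peaks in promoters was 47.0% on X (111 peaks) and 44.7% on the autosomes, and the difference did not pass (odds ratio 1.10, interval 0.829 to 1.45, exact adjusted p = 0.533). In the list of replicate 2 that share was 55.8% against 41.4% (exact adjusted p = 0.00739), and in that of replicate 1 51.5% against 44.9% (exact adjusted p = 0.208).

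A smaller share of X peaks lay inside protein-coding genes. Introns outside promoters held 37 X peaks (15.7%) against 30.4% of autosomal peaks (odds ratio 0.426, interval 0.288 to 0.617, Fisher's exact adjusted p = 2.36e-06), and the share on X was below that of all 5 autosomes, which ran from 25.1% to 33.5%. Per Mb of intron this was 8.11 on X and 26.3 on the autosomes. In the replicate lists the intron share on X was 9.23% in replicate 1 and 7.96% in replicate 2, against 32.3% and 35.7%. Coding exons held 4 X peaks (1.69%) against 7.38% (odds ratio 0.217, exact adjusted p = 0.000594), and in the list of replicate 2 alone, with 1 such X peak, the difference did not pass (exact adjusted p = 0.0599), nor did it among the stronger peaks, at or above the median signal (exact adjusted p = 0.219). The 3′ UTRs held 1 X peak, in F57G12.1, against 68 autosomal ones, and no X summit lay in a 5′ UTR outside promoters (0 of 236, against 3 on the autosomes).

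The intergenic share was higher on X, with 67 peaks (28.4%) against 11.4% (odds ratio 3.07, interval 2.20 to 4.24, Fisher's exact adjusted p = 1.52e-10). It was 30% against 11.5% in replicate 1 and 31.9% against 12.7% in replicate 2. Intergenic sequence also makes up more of X, 29.3% of its bases against 20% of the autosomes, and per Mb of it X had 13.0 peaks (interval 10.1 to 16.5) and the autosomes 13.7. So within the thresholded list the intergenic density of X differed little from that of the autosomes, while its intron density was lower. Most of the 31 X entries missing from that list were intergenic too, and the density with them was not computed. Noncoding genes other than tRNA genes held 16 X peaks (6.78%) and 49 autosomal peaks (2.49%). Per Mb of this class that was 30.9 on X (interval 17.7 to 50.2) and 16.8 on the autosomes (12.4 to 22.2), a contrast that was not tested. The strongest on X were at C05E11.9 (151.5), the pseudogene named above (132.7) and C31H2.6 (126.4). The last is a noncoding RNA gene 5109 bp upstream of apl-1, the worm relative of the amyloid precursor protein gene.

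**Figure D3:**
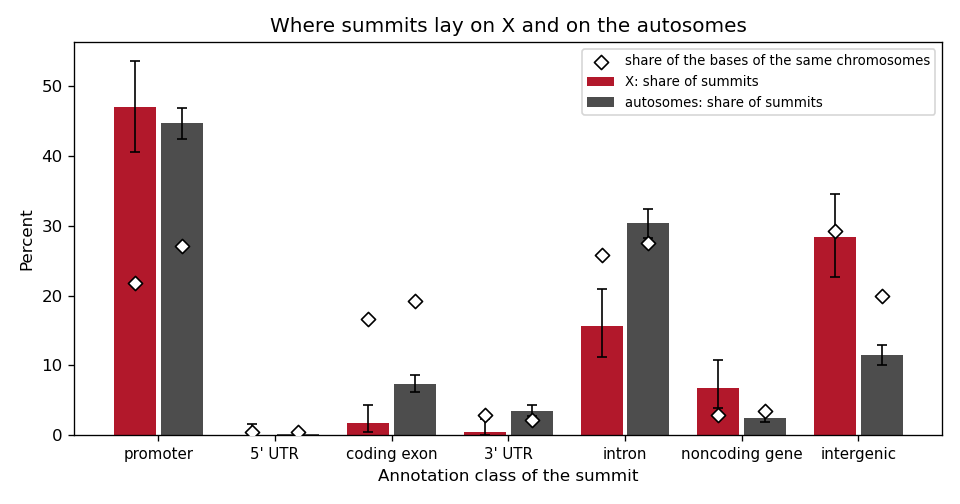
Percent of summits in each annotation class on X (red) and the autosomes (grey), with 95% exact binomial intervals, and the percent of bases in that class on the same chromosomes (diamonds). X has 15.7% of its summits in introns against 30.4%, and 28.4% in intergenic sequence against 11.4%, where its share of bases is 29.3% against 20%.

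Peaks were denser toward both ends of X. In 3 equal parts of its length X held 98, 50 and 88 peaks, or 16.6, 8.47 and 14.9 per Mb. Protein-coding genes were spread more evenly, with 871, 977 and 883, so there were 11.3, 5.12 and 9.97 peaks per 100 genes. In 10 equal parts the count fell from 35 in each of the first 2 to 15 in the fifth and rose to 30 in the last. The autosomes had a like shape, with 32.6, 12.8 and 26.1 per Mb in the 3 parts. The share in the middle part was 21.2% on X and 18% on the autosomes and did not pass the test (odds ratio 1.23, interval 0.862 to 1.73, Fisher's exact adjusted p = 0.308).

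**Figure D4:**
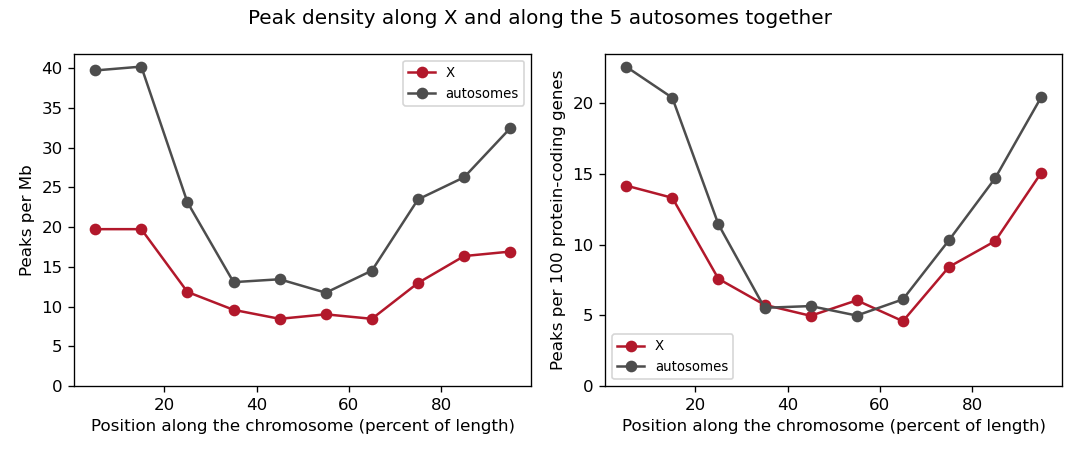
Peaks per Mb (left) and per 100 protein-coding genes (right) in 10 equal parts of chromosome length, for X (red) and the 5 autosomes together (grey). On X the first 2 parts have 19.8 peaks per Mb and the fifth 8.47; the autosomes fall and rise likewise at a higher density.

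X peaks of the thresholded list were mostly isolated from one another once those at tRNA genes were left out. Another kept summit lay within 2000 bp of 40 X peaks (16.9%) and of 40.6% of autosomal peaks (odds ratio 0.298, interval 0.204 to 0.426, Fisher's exact adjusted p = 5.89e-13). Summits at tRNA genes did not count as neighbours. They made up 98 of the 334 X peaks and 115 autosomal ones, and their part in this share was not tested. Among single autosomes the share ran from 31.7% on II to 46.1% on I, and V, with 14.7 peaks per Mb, had 38.4%; the part of peak density in this share was not tested. In the replicate lists the share was 3.08% and 3.54% on X against 34.7% and 33.5%. Many of the 31 X entries missing from the thresholded list lay within 2000 bp of one another, and the share with them was not computed. The median distance between neighbouring kept X summits, with peaks at tRNA genes left out, was 49907 bp. The shortest was 199 bp, and the longest, 626347 bp, began at X peak 19.

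Agreement of the replicates depended on signal. Of the 236 X peaks, 78 overlapped a peak in both replicates' lists, 48 only in that of replicate 1, 33 only in that of replicate 2 and 77 in neither. In the 4 groups of 59 from the strongest to the weakest, 53, 23, 1 and 1 were in both. The share in both lists was 33.1% on X and 41.0% on the autosomes (odds ratio 0.709, interval 0.526 to 0.951, Fisher's exact adjusted p = 0.0290), inside the range of single autosomes (32.3% to 44.6%), and the call was fragile. It was lost against II, IV and V alone (exact adjusted p = 0.141), in the lists of replicate 2 (0.155) and replicate 1 (0.925) alone, among the stronger peaks (0.525), without snoRNA, snRNA and miRNA genes (0.100), and with summits within 100 bp of each other as the match (0.0571). For promoter peaks the share was 38.7% against 37.7%, and outside promoters it was 28.0% against 43.8% (exact adjusted p = 0.00127). In the 78 shared peaks, the ranks of signal in the replicates had a Spearman rho of 0.868, and over the 231 X peaks in both ranked lists, which go far lower, 0.538; these points share their libraries and background.

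The strongest X peaks in the list of replicate 1 and not that of replicate 2 lay 158 bp upstream of rsd-3, a gene needed for systemic RNAi (160.0), in C05E11.9 (151.5) and 119 bp upstream of myrf-2 (141.0). Their ranked-list signals were 107.4, 91.5 and 97.4 in replicate 1 and 52.6, 51.5 and 46.8 in replicate 2. The strongest in the list of replicate 2 only lay 44 bp upstream of vps-45, a vesicle trafficking gene (163.9), in the promoter of sek-3, a MAP kinase kinase gene (150.2), and in pks-1 (133.3). Their signals were 60.8, 80.5 and 56.4 in replicate 1 and 97, 67.2 and 78.6 in replicate 2. Values of different replicates come from separate lists and are not on a common scale.

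X peaks were richer in G and C at the summit than autosomal ones. Over 101 bp the median was 46.5% (quartiles 41.6% and 52.5%), while the medians of single autosomes ran from 38.1% to 41.6%. Centred 500 bp away, the median was 33.7% on X and 35.6% on the autosomes, and the whole X has 35.2% G and C, inside the 34.6% to 36.2% of the autosomes. The difference at the summit was seen in promoters, 47.5% against 42.6%, and was wider outside them, 45.5% against 35.6%. Among peaks in both replicates' lists the medians were 47.5% and 37.6%. These are descriptions with no test.

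**Figure D5:**
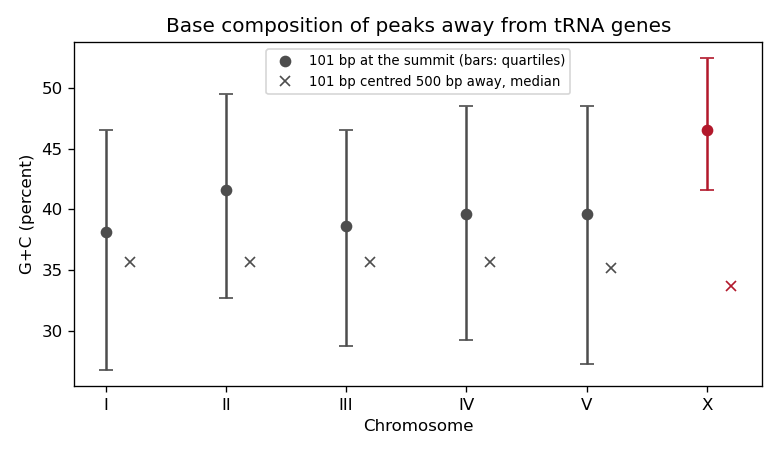
Percent G and C in 101 bp at the summit for each chromosome (circles, median, with quartiles as bars) and median at 500 bp to either side (crosses). X has a median of 46.5% at the summit, above the 38.1% to 41.6% of the autosomes, and 33.7% beside it.

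Words of 6 bases near the summits also differed between X and autosomal peaks. Every possible word, taken with its reverse complement, was tested for presence within 50 bp of the summit, and 161 words (7.74% of all) passed at an adjusted p under 0.05 by Fisher's exact test with Benjamini-Hochberg adjustment. Of these, 101 were more frequent in X peaks and 60 in autosomal peaks. Of the 101, 89 had at least 3 letters G or C and 12 had fewer, and of the 60, 2 had at least 3 and 58 had fewer. The 10 with the smallest p were all more frequent on the autosomes and made mostly of A and T. AAAAAA was in 20.3% of X and 47.9% of autosomal peaks (exact adjusted p = 1.82e-13), AAAAAT in 34.7% and 62.8%, AAAATC in 34.3% and 62.1%, AAAATT in 15.3% and 40.2%, and GAAAAA in 26.7% and 51.1%. AAATCG (28.8% and 51.6%), TAAAAA (13.1% and 32.3%), CGAAAA (10.2% and 28.4%), TTAAAA (5.51% and 21%) and AAATTA (11.4% and 29.2%) followed. These words overlap one another, so they are not separate findings. The lead among words more frequent on X, named after the values were seen, was CACACA, in 19.1% of X and 6.36% of autosomal peaks (exact adjusted p = 1.99e-07).

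The motifs that mark T22C8.4 peaks over the whole genome were present on X, but less often. ATCGAT stood within 100 bp of 111 X summits (47.0%) and of 64.4% of autosomal ones (odds ratio 0.490, interval 0.370 to 0.649, Fisher's exact adjusted p = 8.81e-07 over 5 motifs), with both groups far above all 201 bp windows, of which 4.0% on X and 7.04% on the autosomes held it. ATTGAT was near 37.7% and 50.7% of summits (odds ratio 0.588, exact adjusted p = 0.000236), where 19.3% and 19.9% of all windows held it. In windows centred 500 bp to either side of the summits, ATCGAT stood in 5.30% on X and 20.9% on the autosomes. The part of this background in the lower share on X was not tested. Copies of ATCGAT and ATTGAT can overlap, and both were picked from an earlier look at these peaks, most of which are autosomal. In the list of replicate 1 alone neither difference passed, with 58.5% against 67.9% for ATCGAT (exact adjusted p = 0.0528) and 46.2% against 54.1% for ATTGAT (exact adjusted p = 0.121). The ATTGAT difference also missed the threshold among the stronger peaks (exact adjusted p = 0.0942). Among promoter peaks neither passed (exact adjusted p = 0.331 and 0.212), while outside promoters ATCGAT was in 44% of X and 70.9% of autosomal peaks (exact adjusted p = 1.93e-08).

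GAGAGA went the other way. It was near 32.2% of X and 20% of autosomal summits (odds ratio 1.90, interval 1.40 to 2.57, Fisher's exact adjusted p = 5.60e-05), against 9.50% and 10.1% of all windows. The share was 40% against 20.1% in replicate 1 and 36.3% against 20.3% in replicate 2. Within 50 bp of the summit the difference did not pass, at 14.8% against 11.0% (exact adjusted p = 0.104), nor did it among promoter peaks (exact adjusted p = 0.133). The B box of tRNA genes, GTTCGANTC, was near 1 X summit and 16 autosomal ones (exact adjusted p = 1).

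Promoter summits pointed to 118 of the 2731 protein-coding genes of X (4.32%), against 6.02% of autosomal genes. Of the 118, 44 had a summit that was in both replicates' lists. After nspc-17, bet-2, unc-115, ZC506.1, T13C5.6 and madd-3, the strongest were atrn-1 (231.7), M02E1.1 (227.2), and asg-2 and glr-6 (218.2), which share 1 summit between their divergent 5′ ends. They include skr-21 (215.2), a relative of the ubiquitin ligase subunit Skp1, selt-1.1 (211.4), a selenoprotein T relative, and vha-15 (199.5), a subunit of the vacuolar proton pump.

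Over all the gene lists together, 8 of 113 X-linked genes (7.08%) had a promoter summit, beside the 4.32% of all X genes. In the sex determination and dosage compensation list, 2 of 7 X-linked genes had a promoter summit: dpy-22, a Mediator subunit gene (97.9, with 37.1 and 56.0 in the replicates' ranked lists), and sdc-1, which acts in both processes (82.3, with 55.6 and 33.0). Neither was in both replicates' lists, and xol-1 itself had none in its promoter. Both X-linked ribosomal protein genes listed had one, rpl-11.2 (117.5, with 67.5 and 51.2) and rpl-25.1 (93.6, with 55.1 and 40.3), and of these only rpl-11.2 was in both lists. Transcription factors gave 1 of 18, lin-15B (82.9), a repressor of germline genes; synapse and excitability genes 1 of 21, unc-18 (102.7), which serves synaptic vesicle fusion; muscle genes 1 of 12, unc-78 (96.1), an actin-interacting protein; and nuclear hormone receptors 1 of 23, nhr-1 (130.1). None of the 4 Wnt and polarity genes or the 27 collagens did. These shares were not tested against that of all X genes.

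Other small RNA genes were also searched within 150 bp of the summits. At snoRNA genes, of which X has 33 and the autosomes 313, were 0 of 236 X peaks and 58 of 1966 autosomal peaks (2.95%). At snRNA genes, of which X has 3 and the autosomes 126, were 0 X peaks and 8 autosomal ones (0.407%). For miRNA genes, 74 on X and 187 on the autosomes, the shares ran the other way, with 4 X peaks (1.69%) and 6 autosomal ones (0.305%), and none of these contrasts was tested. The 4 X peaks were those at mir-271 (96.1, the same peak as that of unc-78), mir-73 (77.2), mir-4812 (76.9) and mir-56 (20.9). The peak at rpl-11.2 also lay at linc-78, the single X-linked lincRNA gene with a summit this close.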

How the data were processed

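Peaks of tagged T22C8.4 from 2 replicates of 1 group were analysed. The authors deposited, for each replicate and over both, ranked and thresholded peak lists on ce11, per the file headers and labels. Per peak the deposited columns are a signal value, a capped score and, as another number, the offset of the summit. The sources used here do not give the aligner, peak caller or background model. Peak calling decides which regions appear, and the lists cannot show occupancy below the threshold. The p-values come from Fisher's exact and exact binomial tests of X against autosomal peaks, and densities use bases more than 150 bp from tRNA genes. A summit took the first class that applied: promoter, UTR or coding exon, intron, noncoding gene, intergenic. Lists were matched by 1 bp of overlap. Intervals are 95% (exact) and cover counting error only. Annotation was Ensembl release 115 and sequence RefSeq, both WBcel235. The members, motifs and gene lists were chosen with earlier results of these data known. Named were the 20 strongest X peaks in both replicate lists, the 6 strongest with a MEX core, the 3 strongest per class and per single replicate, up to 4 per gene list and the 10 words of smallest p; weaker peaks with the core and further targets were added after their values were seen. Alternatives were replicate lists, a stricter list, the stronger peaks, other windows, exclusions and autosomes. Tests were checked on data with known answers. Python 3.11.15, numpy 2.4.6, scipy 1.17.1, pandas 2.3.3 and matplotlib 3.10.9 were used.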

Additional observations from a re-analysis of the deposited data

How the results depend on the processing

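Values are odds or rate ratios of X over autosomes unless said otherwise. X density, intergenic, intron and neighbour shares kept direction and call in all 8 alternatives each, and the MEX core in all 11. The intergenic, intron and neighbour shares were not tried on the ranked entries with a score of at least 830. With 1 replicate left out, ranges were 0.704 to 0.980 for the share in both lists, 0.139 to 0.164 for coding exons, 0.514 to 0.666 for ATCGAT, 0.465 to 0.726 for ATTGAT, 0.652 to 0.843 for promoter density, 1.31 to 1.78 for promoter share, 1.04 to 1.12 for the share in the strongest 25% (reversed), 66 to 73 target genes and 98 to 125 words; calls were lost for the share in both lists (either replicate), coding exons and promoter density (without replicate 1), ATCGAT and ATTGAT (without replicate 2), and promoter share gained one (without replicate 1). With the stronger peaks (those at or above the median), the calls were lost for the share in both lists at 0.836, coding exons at 0.223 and ATTGAT at 0.679, while the share in the strongest 25% was 1.04 (reversed), target genes 56 and words 79. Against II, IV and V, the call was lost for the share in both lists at 0.765 and for promoter density, which reversed to 1.00, the middle part reversed to 0.996, and words numbered 93. The call for the share in both lists was also lost at 0.764 without snoRNA, snRNA and miRNA genes and at 0.738 with summits within 100 bp. Promoter share reversed to 0.829 with a 500 bp window. GAGAGA lost its call at 1.41 within 50 bp. Words numbered 78 within 25 bp and 332 within 100 bp. In alternatives chosen after seeing the data, promoter peaks lost the calls for the share in both lists (1.05, reversed), ATCGAT (0.786), ATTGAT (0.713) and GAGAGA (1.54), and gave 1.12 for the share in the strongest 25% and 34 words. Outside promoters, the share in the strongest 25% was 0.576, now past the threshold, and words 105; among ranked entries with a score of at least 830 the share in the strongest 25% was 1.03. The cause was not tested. Fewer peaks enter the replicate and stronger-peak lists.

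No paired analysis was possible because the study has 1 group. Sequencing depth and the control signal limit what can be said of weak peaks, and neither is known here.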

Other observations

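The ranked list over both replicates held 31 X entries away from tRNA genes with a score of at least 830 that overlapped no peak of the thresholded list, which is 11.6% of the 267 such entries on X, against 132 of 2098 (6.29%) on the autosomes; why they are missing is not stated. Of the 31, 4 had a higher signal than the strongest X member. The strongest, at chrX:15810945-15811204, had a signal of 4148, with 2087 and 2197 in the replicates, and lay 6935 bp upstream of Y7A5A.7. The others lay 1476 bp upstream of elk-2 (1804), 1493 bp upstream of Y102F5A.1 (1634) and 3791 bp upstream of R57.2 (1292). All 4 were intergenic, as were most of the 31, and none of the 31 held the MEX core.

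The last counts are of ranked entries away from tRNA genes. Of these, X made up 11.0% of the 1913 at the capped score and 12.4% of the 452 below it down to the limit. It made up 13.4% of the next 1146 and 15% of the 52062 lowest.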
